A study of Homo sapiens with 6 samples.

Results

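The genes described here are 44 genes of DNA replication and of the passage from G1 into S phase, taken as a list of symbols. No measured value enters the rule of the list, though it was drawn up with earlier results of these data known. All 44 were matched by symbol to the 60675 Ensembl genes counted in each library, and all 44 were among the 18075 genes with enough reads to be tested. The libraries were made from PLC/PRF/5 cells, a human hepatocellular carcinoma line, grown in DMEM with serum, and held total RNA, with 3 control libraries and 3 libraries after knockdown of MTR4 (MTR4 KD). MTR4, with the current symbol MTREX, is an RNA helicase that delivers nuclear RNA to the exosome for trimming or decay. The sample labels give the groups as control and MTR4 KD and add neither the hairpin nor a duration. The study describes the RNA-seq comparison as one before and after inducible knockdown, and no library with doxycycline and a scramble hairpin was analysed here. Nothing in the labels says that the libraries of a group came from separate cultures, so p-values measure the spread between these libraries, which may be technical.

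Before a cell enters S phase, the origin recognition complex, CDC6 and CDT1 load the MCM2-7 helicase onto origins as an inactive ring. CDC45, the GINS complex and MCM10 then turn the ring into an active helicase, and the polymerases copy DNA behind it while PCNA, loaded by replication factor C, holds them on the template. Transcription of most of these genes is switched on late in G1 by the E2F factors, once cyclin-dependent kinases have released them from the retinoblastoma family of repressors. Because the genes are on in dividing cells and largely off in resting ones, their joint level is a familiar mark of a proliferating cell population.

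The short DNA element bound by E2F factors was looked for in the promoters, since it is the sequence that the genes are best known to share. Promoter sequence from RefSeq on GRCh38.p14, the 250 bases before and the 50 bases after a gene's start, was matched for 39 of the 44 genes. One of the octamers TTTCCCGC, TTTCGCGC, TTTGCCGC and TTTGGCGC stood on either strand in 21 of these 39 promoters (53.8%), against 628 of 12118 promoters of tested genes (5.18%). The E-box CACGTG was in 4 of the 39 (10.3%) against 9.79% of tested genes, and CCAAT on either strand was in 21 of the 39 (53.8%) against 36.6%. The windows below show the octamer in capitals within 30 bases of promoter, read along the gene's strand, for 7 genes that fell after MTR4 knockdown (MCM6, GINS2, PCNA, RFC3, UHRF1, E2F2 and CDC25A) and for 3 that did not pass the test (POLE, LIG1 and E2F1).
MCM6 at chr2:135876577-135876606, minus strand: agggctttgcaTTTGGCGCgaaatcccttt
GINS2 at chr16:85688967-85688996, minus strand: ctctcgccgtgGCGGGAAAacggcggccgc
PCNA at chr20:5126663-5126692, minus strand: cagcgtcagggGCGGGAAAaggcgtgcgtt
RFC3 at chr13:33818083-33818112, plus strand: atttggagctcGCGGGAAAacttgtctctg
UHRF1 at chr19:4909476-4909505, plus strand: gccgagttttcGCGGGAAAaaaatcagagc
E2F2 at chr1:23531257-23531286, minus strand: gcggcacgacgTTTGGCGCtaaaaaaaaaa
CDC25A at chr3:48188443-48188472, minus strand: ggtggattccgTTTGGCGCcaactaggaaa
POLE at chr12:132687342-132687371, minus strand: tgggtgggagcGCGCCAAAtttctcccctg
LIG1 at chr19:48170440-48170469, minus strand: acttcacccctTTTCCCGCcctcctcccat
E2F1 at chr20:33686400-33686429, minus strand: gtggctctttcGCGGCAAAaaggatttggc
Each window marks the first octamer met along the gene's strand. The MCM6 promoter held 4 octamers and the E2F1 promoter 2, so their distances are those of the outermost site. The MCM6 window also holds another listed octamer, read on the opposite strand, which overlaps the capitals and is partly in lower case. Of the octamers marked, the one in MCM6 lay farthest from the start, 152 bases before it. The one in UHRF1 lay closest, 14 bases before the start used for that promoter. That start is inside the annotated gene (chromosome 19, 4903080 to 4962154), so the UHRF1 distance depends on the start chosen. POLE came next, with the octamer 18 bases before the start. A match is a description of letters and does not show that a factor binds there.

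Between 60686786 and 72708682 reads per library fell on genes, and each of the 44 genes had at least 165 reads in every library. Alignment split the libraries into batches A and B, a split that no label gives. In batch A, with control libraries 1 and 3 and MTR4 KD library 3, 34.7% to 37.5% of the entries were reads without a unique alignment. In batch B, with control library 2 and MTR4 KD libraries 1 and 2, these reads were 14.8% to 18.2%. Libraries of 1 condition differed more across batches than within them, with a chi-square per degree of freedom of 84.1 to 93.5 against 4.61 and 7.96. The fit therefore had the batch as a covariate beside the condition. Of the lists of cell type markers, the hepatocyte list was summed to 10341 to 10612 CPM in control and 10162 to 11431 CPM in MTR4 KD libraries, where CPM, the count of a gene relative to its library's depth, puts all libraries on the same depth with TMM factors. All 9 of its members were in the fit, and they moved both ways, with APOA1 (0.54), ALB (0.26) and GPC3 (0.19) higher and KRT18 (-0.26) and KRT8 (-0.22) lower on the log2 scale at an adjusted p under 0.05. The part of this in the results below was not tested. The blood, endothelial and fibroblast lists were summed to at most 20.4, 0.535 and 10.2 CPM in any library.

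MTREX itself was at 72.2, 87.4 and 74.4 CPM in control libraries 1, 2 and 3 and at 44.6, 48.8 and 44.1 CPM in MTR4 KD libraries 1, 2 and 3. Every MTR4 KD library was below every control library. On the log2 scale it fell by 0.82, or 43.4%, with a standard error (SE) of 0.0542 and an adjusted p of 3.62e-07. The test was the quasi-likelihood F test of edgeR, with Benjamini-Hochberg adjustment over 18075 genes. All adjusted p-values below come from this fit unless another is named.

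The replication and G1/S genes were lower after MTR4 knockdown, each by a small amount. The fitted mean was lower in MTR4 KD for 44 of 44 genes, against 49.2% of all tested genes, with a median log2 fold change of -0.23 against 0.01 over all tested genes. The median decrease was 14.7%, and 17.4% of all tested genes lay below that median log2 fold change. At an adjusted p under 0.05, 28 of the 44 fell and 0 rose, against 10.8% of tested genes that fell and 9.43% that rose (20.2% in either direction). At an adjusted p under 0.01, 24 of the 44 fell, against 5.97% of tested genes. With the same test, 0 of the 44 changed by over 1.5-fold, against 2.55% of tested genes that fell by that much. With condition as the only term 8 of the 44 fell, against 2.12% of tested genes, and 0 rose. In that fit the median log2 fold change was nearly the same, -0.22, and 43 of 44 were lower, while the biological coefficient of variation was 0.175 against 0.0573 with the batch term. The 8 genes are E2F2, ORC1, CHAF1B, POLD3, ORC6, MCM6, MCM10 and MCM5, all of them among the 28. In bulk RNA, fewer cells in S phase and less RNA of these genes per cell cannot be told apart.

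**Figure D1:**
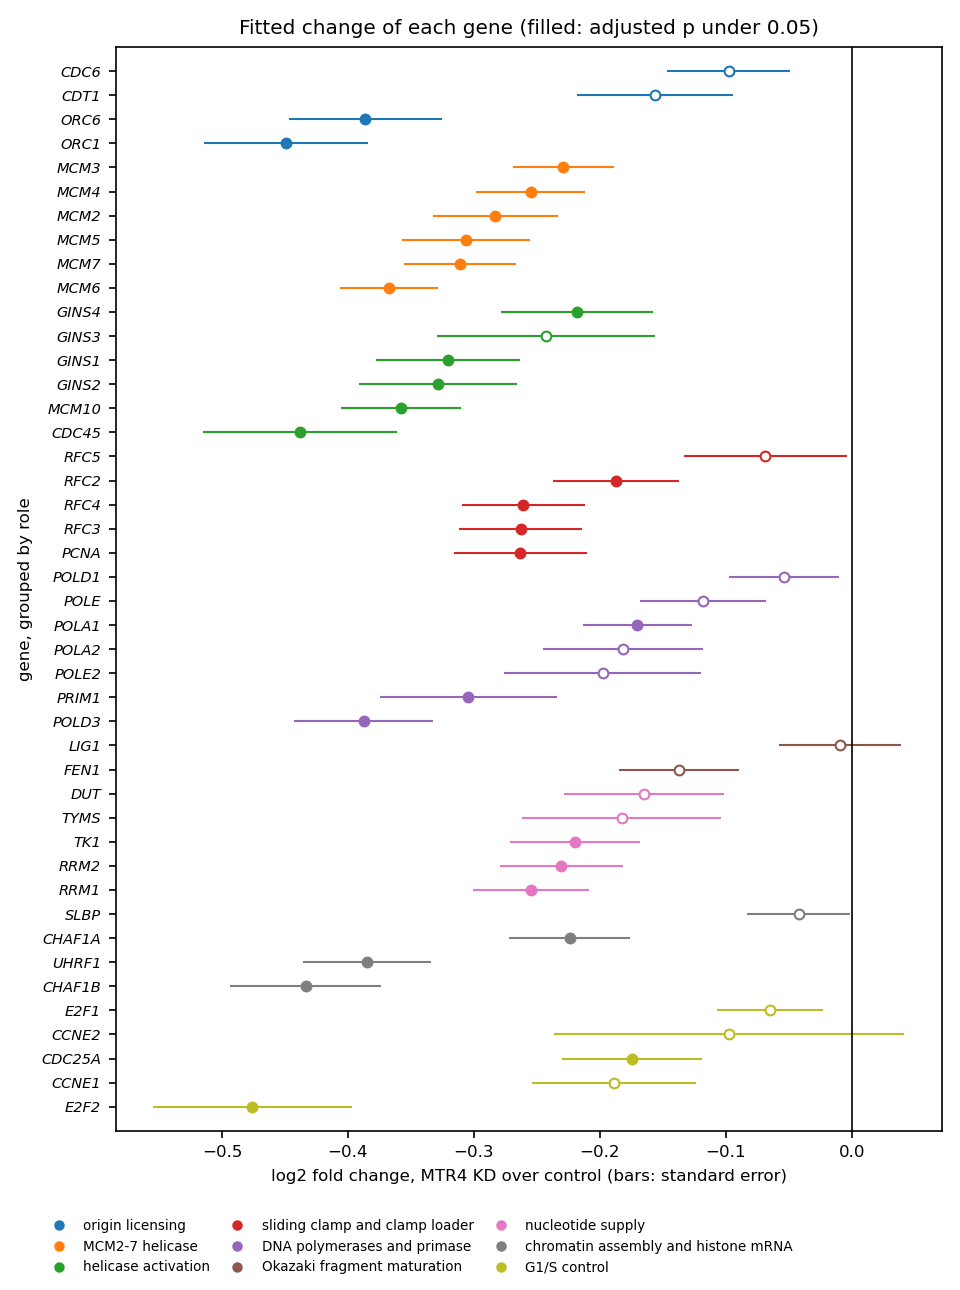
Fitted log2 fold change, MTR4 KD over control, for each of the 44 genes, grouped by role, with bars for 1 standard error of the fit over 6 libraries. Filled points have an adjusted p under 0.05. All points lie left of 0, from -0.48 for E2F2 to -0.01 for LIG1, and the 28 filled points include all 6 genes of the MCM2-7 helicase.

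**Figure D2:**
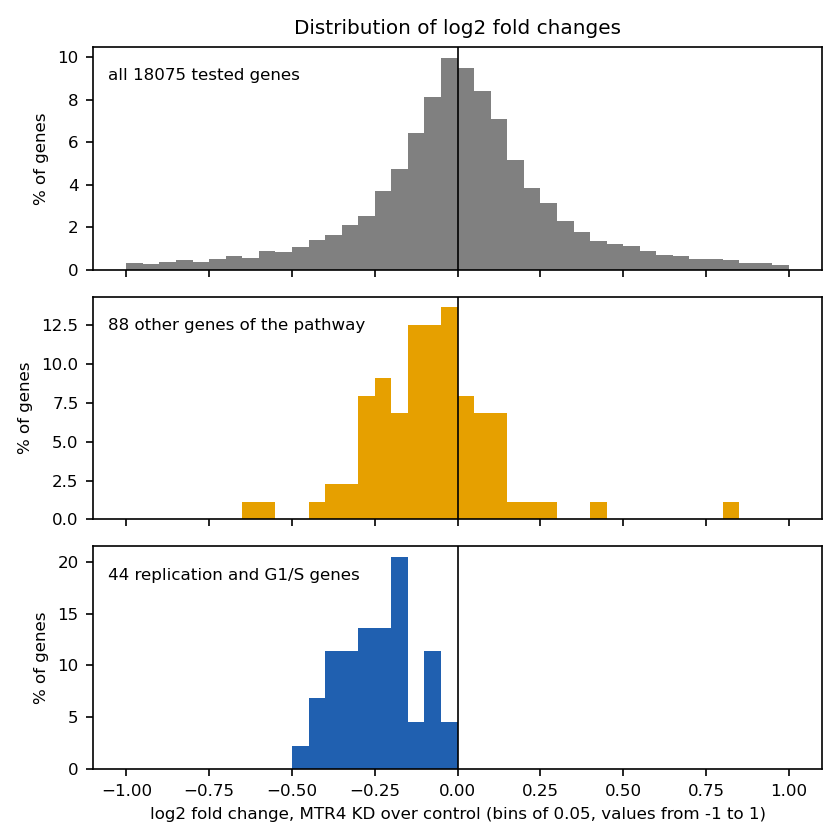
Share of genes (percent) in bins of 0.05 of the log2 fold change, MTR4 KD over control, for all 18075 tested genes, 88 other genes of the pathway and the 44 replication and G1/S genes. Values outside -1 to 1 are left out, which removes 3.68% of all tested genes, 2 other pathway genes and 0 of the 44. All tested genes centre near 0 (median 0.01), the other pathway genes have a median of -0.09 and the 44 genes of -0.23.

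The decrease was seen in each MTR4 KD library. Counted together, the 44 genes made up 3082, 3102 and 3013 CPM in control libraries 1, 2 and 3 and 2723, 2694 and 2520 CPM in MTR4 KD libraries 1, 2 and 3. The 3 MTR4 KD sums were 12.2%, 13.2% and 17.3% below the control mean of their own batch, and the groups did not overlap. Gene by gene, 44 of 44 were below that control mean in each of the 3 MTR4 KD libraries, with medians of -0.21, -0.22 and -0.27 on the log2 scale. Of all tested genes, 49.3%, 50.1% and 49.9% were below it in the same libraries, with medians between -0.00016 and 0.0042. MTR4 KD libraries 1 and 2 were both set against control library 2, so their values are not independent of each other. For 43 of the 44 genes every MTR4 KD library was below every control library of its own batch in both batches, against 24.6% of tested genes. LIG1 was the exception. Across the batches, 32 of the 44 had all 3 MTR4 KD libraries below all 3 control libraries, against 12.6% of tested genes.

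**Figure D3:**
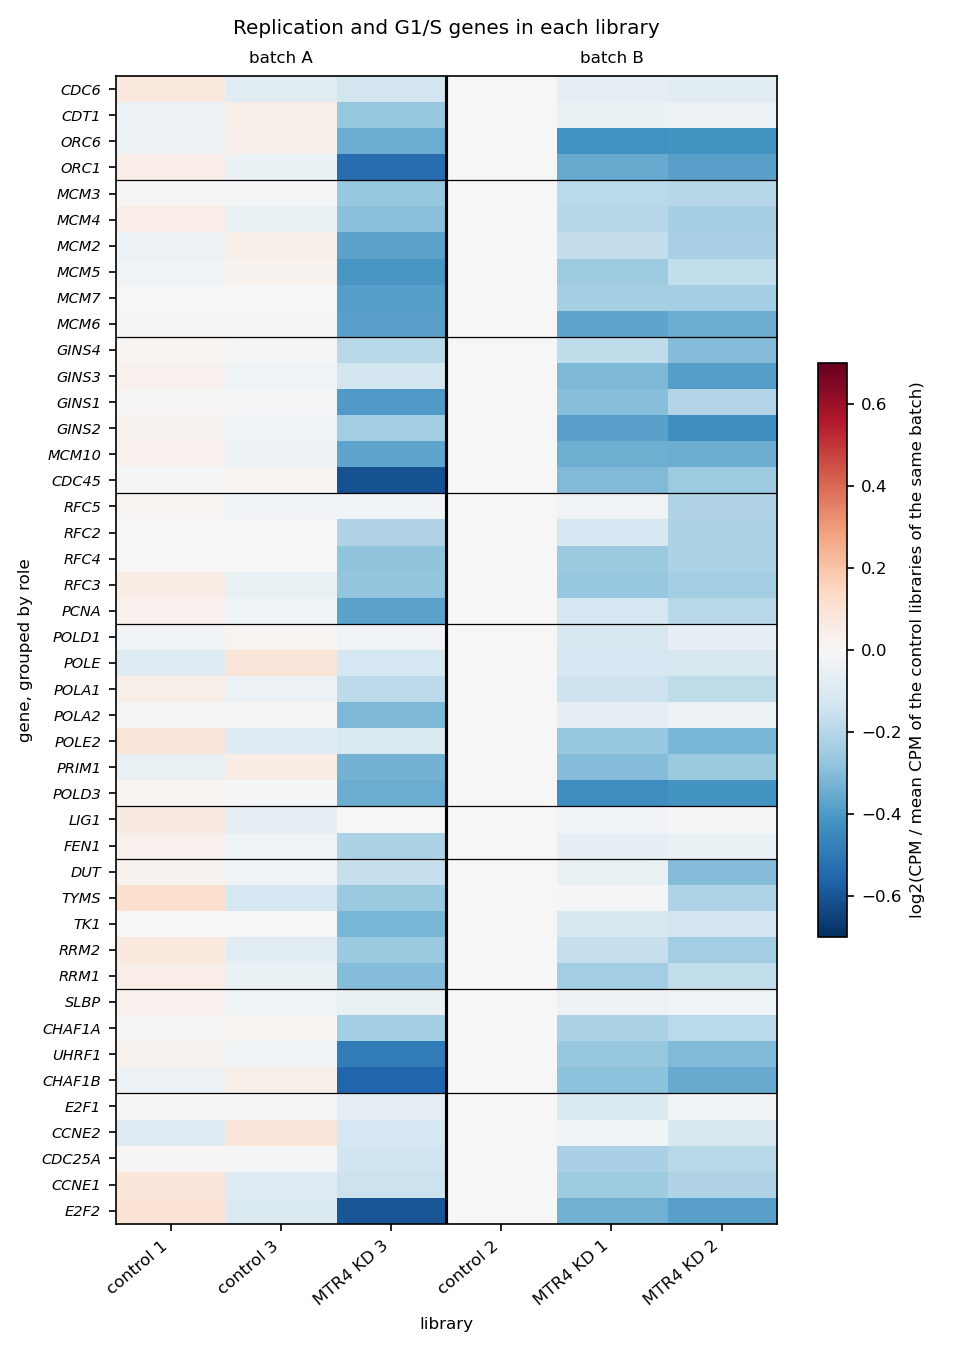
Heat map of log2(CPM divided by the mean CPM of the control libraries of the same batch), with 1 row per gene grouped by role and 1 column per library, ordered by batch. Blue is below and red above the control mean. The 3 MTR4 KD columns run from near white, as in LIG1, to dark blue (12.2% to 17.3% below control in summed CPM), and control 2 is 0 by construction, since it is the only control library of its batch.

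The median log2 difference of the 44 genes was -0.27 within batch A and -0.21 within batch B. The test of the difference between the batches (the interaction of condition and batch) passed for 0 of the 44 genes, against 0.974% of all tested genes. Its smallest adjusted p was 0.303, for PCNA, and 10 of the 44 had an unadjusted p under 0.05. The share of all tested genes at that unadjusted p was not counted, so the 10 have no background to be read against. A difference between the batches of the size seen in single genes is not shown to be absent. CDC45, the partner that converts the MCM ring into the working helicase, differed by -0.61 in batch A and -0.28 in batch B (adjusted p of the interaction 0.315). For GINS3 the order was turned, with -0.13 in batch A and -0.35 in batch B (adjusted p of the interaction 0.690).

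**Figure D4:**
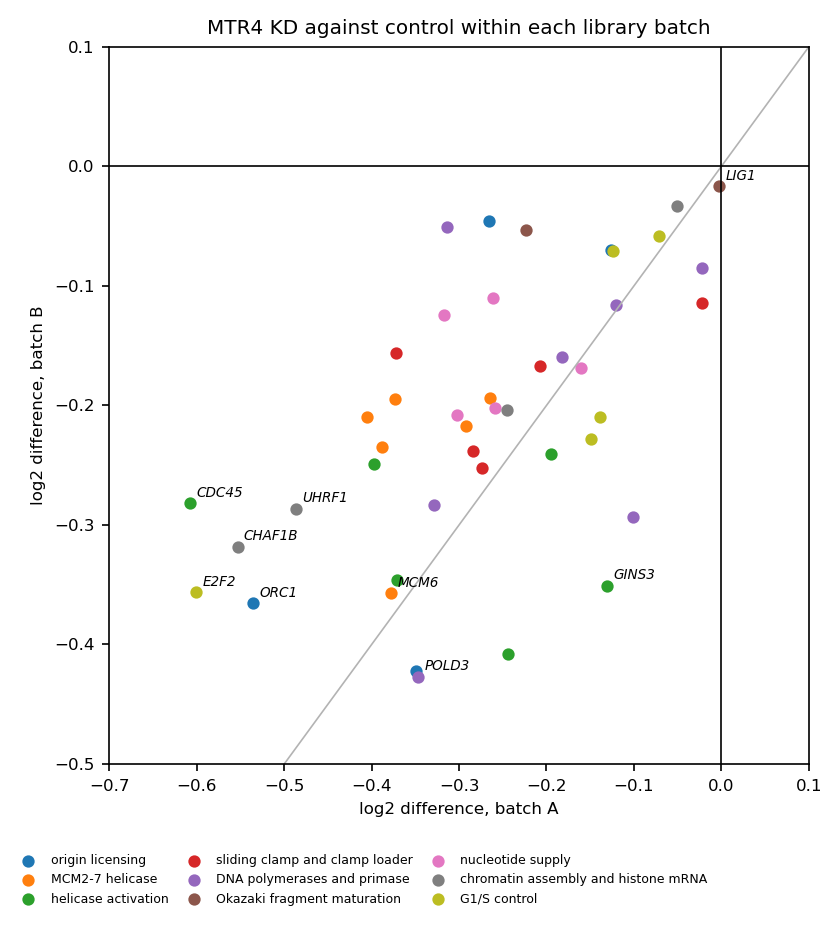
Log2 difference between the mean CPM of MTR4 KD and control libraries in batch A (x axis) and batch B (y axis), for the 44 genes coloured by role. The grey line marks equal differences. All points lie at or below 0 on both axes, with medians of -0.27 and -0.21, and LIG1 sits nearest to 0.

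Of the genes of origin licensing, ORC1 and ORC6 fell and CDC6 and CDT1 did not pass the test, with a median log2 fold change of -0.27 over the 4. ORC1, the largest subunit of the origin recognition complex and the one that comes and goes with the cell cycle, was at 28.1, 23.9 and 26.3 CPM in control libraries 1, 2 and 3 and at 18.7, 18.3 and 18.8 CPM in MTR4 KD libraries 1, 2 and 3. The control and MTR4 KD libraries of ORC1 (ENSG00000085840, chromosome 1 of GRCh38, 52372829 to 52409503) were well apart, and the log2 fold change was -0.45 (SE 0.0651, adjusted p = 0.000347). ORC6, the smallest subunit, was at 22.7, 22.5 and 23.8 CPM in control and at 16.8, 16.8 and 18.3 CPM in MTR4 KD, again without overlap (log2 fold change -0.39, SE 0.0610, adjusted p = 0.000672). CDC6, the ATPase that helps to load the MCM ring, was at 75.1, 74.6 and 67.9 CPM in control and at 71.3, 70.9 and 65.5 CPM in MTR4 KD. These values overlapped, and the log2 fold change of -0.10 did not pass the test (adjusted p = 0.186). CDT1, the other loading factor, was at -0.16 on the log2 scale (adjusted p = 0.0977).

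All 6 subunits of the MCM2-7 helicase, the ring that unwinds DNA at the fork, fell, with log2 fold changes of -0.37 for MCM6, -0.31 for MCM7, -0.31 for MCM5, -0.28 for MCM2, -0.25 for MCM4 and -0.23 for MCM3. For each of the 6 subunits the MTR4 KD libraries lay below all control libraries. MCM6 (ENSG00000076003, chromosome 2, 135839626 to 135876443) was at 173, 181 and 172 CPM in control and at 140, 142 and 133 CPM in MTR4 KD (SE 0.0389, adjusted p = 2.60e-05). This was the lowest adjusted p of the 44 genes. MCM7, which hosts microRNAs in an intron and shares exon sequence with MIR93 and AP4M1, was at 266, 304 and 267 CPM in control and at 259, 257 and 204 CPM in MTR4 KD (adjusted p = 0.000315). Its highest MTR4 KD libraries were close to its lowest control libraries, which belong to the other batch. MCM5 went from 103, 96.5 and 106 CPM to 81.2, 85.7 and 78.9 CPM (adjusted p = 0.000981). MCM3 had the smallest difference of the ring, from 165, 181 and 163 CPM to 159, 158 and 137 CPM (adjusted p = 0.00144). With condition as the only term, MCM6 and MCM5 passed the test and the other 4 subunits did not.

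The factors that activate the helicase had the lowest median of the 9 roles, -0.32, and 5 of 6 fell. CDC45 (ENSG00000093009, chromosome 22, 19479466 to 19520612) was at 21.3, 22.3 and 21.8 CPM in control and at 18.0, 18.7 and 14.1 CPM in MTR4 KD (log2 fold change -0.44, SE 0.0768, adjusted p = 0.00144). MTR4 KD library 3 was the lowest and stood apart from the other MTR4 KD libraries. MCM10, which binds the assembled helicase as it starts to unwind, was at 53.3, 55.5 and 50.9 CPM in control and at 43.7, 43.5 and 40.3 CPM in MTR4 KD, with nearly equal differences in both batches (log2 fold change -0.36, adjusted p = 0.000178). GINS2, a subunit of the 4-part GINS complex that joins CDC45 on the ring, was at 23.7, 27.3 and 22.9 CPM in control and at 21.0, 20.1 and 19.7 CPM in MTR4 KD (log2 fold change -0.33, adjusted p = 0.00262). GINS4 was at 26.4, 28.8 and 25.8 CPM in control and at 25.5, 23.3 and 22.8 CPM in MTR4 KD (log2 fold change -0.22, adjusted p = 0.0212). For both subunits the groups did not overlap, though the gap was narrow for GINS4. GINS1 changed by -0.32 on the log2 scale (adjusted p = 0.00166). GINS3, with the fewest reads of the complex, had -0.24 and did not pass the test (adjusted p = 0.0668). GINS2 shares exon sequence with GSE1 on the opposite strand, so part of its reads is uncertain where the counting did not use strand.

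PCNA, the sliding clamp, and the small subunits of its loader had a median of -0.26, and 4 of 5 fell. PCNA (ENSG00000132646, chromosome 20, 5114953 to 5126622) was at 115, 113 and 111 CPM in control and at 104, 98.6 and 87.3 CPM in MTR4 KD. The control libraries lay within a narrow band, and MTR4 KD library 3 was farthest below it (log2 fold change -0.26, SE 0.0526, adjusted p = 0.00351). RFC3 was at 55.7, 56.8 and 51.8 CPM in control and at 47.1, 48.2 and 44.4 CPM in MTR4 KD (-0.26, adjusted p = 0.00221). RFC4 was at 43.7, 48.3 and 43.8 CPM in control and at 40.4, 41.5 and 35.9 CPM in MTR4 KD (-0.26, adjusted p = 0.00229). Neither subunit had overlapping groups. RFC2 changed by -0.19 on the log2 scale (adjusted p = 0.0187). RFC5 was at 28.5, 27.4 and 27.8 CPM in control and at 27.0, 23.7 and 27.7 CPM in MTR4 KD, which overlapped (-0.07, adjusted p = 0.509). RFC4 and RFC5 share exon sequence with the more highly counted EIF4A2 and WSB2 on the opposite strand, and PCNA has 3 named pseudogenes. In all, 22 of the 44 genes share exon sequence with another counted gene or have a named pseudogene, and their counts are uncertain to that extent.

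Among the polymerase and primase genes the decreases were smaller, with a median of -0.18, and 3 of 7 fell. POLD3, an accessory subunit of polymerase delta, was at 31.5, 33.3 and 31.0 CPM in control and at 24.6, 24.9 and 24.6 CPM in MTR4 KD, the tightest of the separations in this role (log2 fold change -0.39, SE 0.0551, adjusted p = 0.000301). PRIM1, the catalytic subunit of primase, which lays down the RNA primers, was at 13.6, 16.0 and 14.5 CPM in control and at 13.0, 13.4 and 11.2 CPM in MTR4 KD (-0.30, adjusted p = 0.00825), and it shares exon sequence with NACA on the same strand. POLA1, the catalytic subunit of polymerase alpha that extends these primers, was at 78.4, 84.9 and 74.3 CPM in control and at 76.9, 75.1 and 67.3 CPM in MTR4 KD. The POLA1 groups overlapped across batches and were apart within each (-0.17, adjusted p = 0.0139). POLD1, the catalytic subunit of polymerase delta, was at 75.5, 70.8 and 77.7 CPM in control and at 65.4, 68.1 and 75.4 CPM in MTR4 KD, and its -0.05 did not pass the test (adjusted p = 0.436). POLE2, POLA2 and POLE had log2 fold changes of -0.20, -0.18 and -0.12 (adjusted p = 0.0963, 0.0612 and 0.120). The catalytic and accessory subunits of polymerase delta thus had unequal fitted changes, a difference that was not tested.

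Neither of the genes for the maturation of Okazaki fragments passed the test, and their median of -0.07 was the closest to 0 of the 9 roles. LIG1, the ligase that seals nicks on the lagging strand, was at 61.6, 62.0 and 56.2 CPM in control and at 61.2, 61.5 and 58.8 CPM in MTR4 KD. The libraries of both groups covered the same range, the log2 fold change was -0.01 (SE 0.0485, adjusted p = 0.921), and its sign turned under other settings. FEN1, the flap nuclease, was at -0.14 on the log2 scale (adjusted p = 0.0593).

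Of the genes that supply nucleotides, 3 of 5 fell, with a median of -0.22. RRM1, the large subunit of ribonucleotide reductase, was at 111, 114 and 104 CPM in control and at 96.4, 101 and 87.4 CPM in MTR4 KD (log2 fold change -0.25, SE 0.0460, adjusted p = 0.00179). RRM2, the small subunit whose level sets the activity of the enzyme in S phase, was at 180, 173 and 163 CPM in control and at 155, 146 and 143 CPM in MTR4 KD (-0.23, adjusted p = 0.00490). TK1, the thymidine kinase of the salvage pathway, was at 64.8, 59.9 and 65.1 CPM in control and at 55.3, 54.5 and 52.1 CPM in MTR4 KD (-0.22, adjusted p = 0.00923). All 3 had groups that did not overlap. DUT, which removes dUTP, was at 57.1, 54.2 and 55.0 CPM in control and at 52.5, 43.9 and 50.2 CPM in MTR4 KD, with MTR4 KD library 2 lowest, and did not pass the test (-0.16, adjusted p = 0.0880). TYMS, the thymidylate synthase, had -0.18 (adjusted p = 0.127) and shares exon sequence with ENOSF1 on the opposite strand. DUT has 8 and RRM2 has 3 named pseudogenes, so that some of their reads may have been left out as not unique.

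The chromatin assembly genes fell and SLBP did not pass the test. CHAF1B, the middle subunit of the chaperone that places histones behind the fork, was at 55.4, 55.5 and 58.8 CPM in control and at 45.6, 43.5 and 38.9 CPM in MTR4 KD (log2 fold change -0.43, SE 0.0598, adjusted p = 0.000239). UHRF1, which brings maintenance DNA methylation to newly made strands, was at 87.0, 88.5 and 83.8 CPM in control and at 73.6, 71.4 and 60.9 CPM in MTR4 KD (-0.38, adjusted p = 0.000174). In both genes MTR4 KD library 3 was the lowest, and all MTR4 KD libraries were below all control libraries. CHAF1A, the large chaperone subunit, was at 46.9, 49.6 and 47.8 CPM in control and at 42.5, 43.6 and 39.9 CPM in MTR4 KD (-0.22, adjusted p = 0.00533), and it shares exon sequence with the more highly counted UBXN6 on the opposite strand. SLBP, which binds the stem-loop of histone mRNAs, was at 106, 92.3 and 102 CPM in control and at 89.8, 90.5 and 100 CPM in MTR4 KD. Its values followed the batch more than the condition (-0.04, adjusted p = 0.522).

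Among the genes of G1/S control, E2F2 and CDC25A fell and 3 genes did not pass the test. E2F2, an activating E2F factor, had the largest decrease of all 44 genes, 28.1%. E2F2 (ENSG00000007968, chromosome 1, 23505212 to 23531233) was at 23.0, 19.5 and 20.1 CPM in control and at 15.5, 15.0 and 14.2 CPM in MTR4 KD, without overlap (log2 fold change -0.48, SE 0.0787, adjusted p = 0.000945). CDC25A, the phosphatase that activates cyclin-dependent kinases, was at 29.9, 29.0 and 29.6 CPM in control and at 24.8, 25.4 and 27.0 CPM in MTR4 KD (-0.17, adjusted p = 0.0416). E2F1, the other activating E2F factor of the list, was at 96.0, 71.7 and 94.6 CPM in control and at 67.2, 70.6 and 90.8 CPM in MTR4 KD. The E2F1 libraries split by batch, and within a batch the groups were close (-0.06, adjusted p = 0.320). The cyclins that partner CDK2 at the G1/S boundary, CCNE1 and CCNE2, had log2 fold changes of -0.19 and -0.10 (adjusted p = 0.0580 and 0.683), and CCNE2 had only 165 to 199 reads per library and shares exon sequence with the more highly counted INTS8 on the opposite strand.

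**Figure D5:**
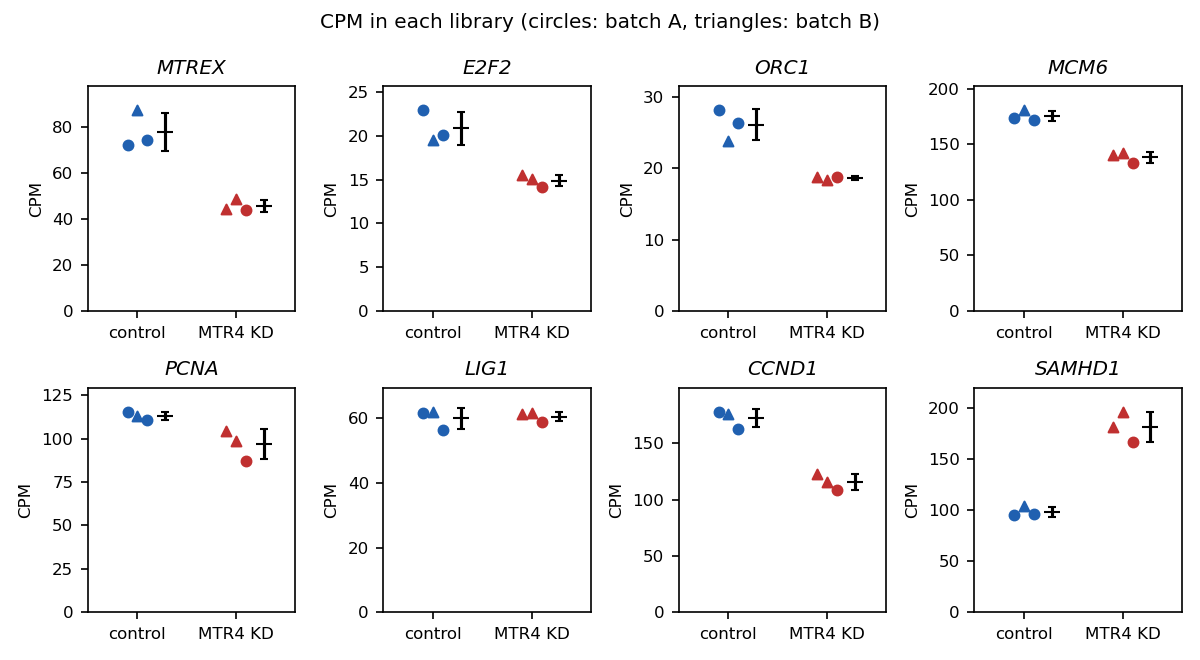
CPM in each library for MTREX, 5 of the replication and G1/S genes (E2F2, ORC1, MCM6, PCNA and LIG1) and 2 other genes of the pathway (CCND1 and SAMHD1), with the mean and SD of 3 libraries beside the points. Circles are libraries of batch A and triangles libraries of batch B. MTR4 KD libraries are below all control libraries for MTREX, E2F2, ORC1, MCM6, PCNA and CCND1, above them for SAMHD1 (182, 197 and 167 CPM against 94.9, 104 and 95.9), and in the same range for LIG1.

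Levels were compared between genes per kilobase of the annotated canonical transcript. In control libraries MCM7 was highest at 113 CPM per kb, followed by PCNA at 88.6, MCM3 at 55.4 and SLBP at 55.2, the last pair being closer than the spread of either. The 6 subunits of the MCM ring lay between 29.5 and 113 CPM per kb and the 6 helicase activation genes between 4.24 and 11.7. CCNE2 was lowest at 1.09, after E2F2 at 4.02. In the MTR4 KD libraries MCM7 (97.3) and PCNA (75.8) again ranked highest and CCNE2 (0.994) lowest, and SLBP (51.7) ranked above MCM3 (49.3).

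Within the list, genes with and without the E2F octamer had alike counts. Of the 21 genes with an octamer 12 fell, with a median log2 fold change of -0.23, and of the 18 matched genes without one 12 fell, also with a median of -0.23. The windows shown above hold both ends of this range. E2F2 and MCM6, with the marked octamer 42 and 152 bases before the start, had log2 fold changes of -0.48 and -0.37. LIG1, with an octamer 114 bases before the start, had -0.01. ORC1, second in the order of decreases, had no octamer in its window. These counts are a description, with no test.

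The rest of the pathway was read from a list of 89 further genes of replication, nucleotide supply, chromatin assembly, G1/S control and the S phase checkpoint, of which 88 were in the fit and ATRIP was not. Of the 88, 25 fell and 4 rose, against 10.8% and 9.43% of all tested genes, and the median log2 fold change was -0.09. With condition as the only term, 4 passed the test, a share close to the 3.6% of all tested genes that did. The counts by list that follow are small and stand against the same 10.8% and 9.43%. Of the genes of fork assembly and progression, 7 of 17 fell and 0 rose, among them TIPIN (-0.30, adjusted p = 0.00925), TICRR (-0.30, 0.00271) and CLSPN (-0.29, 0.00592), which protect or start forks. Of the other licensing genes, 3 of 9 fell (MCM8 -0.29, MCMBP -0.23 and ORC2 -0.21) and 2 rose (MCM9 0.25 and ORC3 0.20). MCM8 and MCM9 form a helicase with each other that works in repair rather than licensing. The other clamp loader and polymerase genes included DSCC1 (-0.37, adjusted p = 0.00111) and PRIM2 (-0.24, 0.0258) among 2 of 9 that fell. Of the chromatin assembly genes, 5 of 9 fell, led by ATAD2 (-0.39, adjusted p = 0.000266), NASP (-0.30, 0.000191) and ASF1B (-0.28, 0.00269).

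In nucleotide supply, SAMHD1 rose, and NME1 (-0.32) and CTPS1 (-0.13) fell, out of 9 genes. SAMHD1, which breaks down deoxynucleotides and so acts against the synthesis enzymes, was at 94.9, 104 and 95.9 CPM in control and at 182, 197 and 167 CPM in MTR4 KD. This was the largest change with an adjusted p under 0.05 in the list of further genes, 0.83 on the log2 scale (SE 0.0444, adjusted p = 5.26e-08), and it passed the test with condition as the only term (adjusted p = 0.00206).

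In G1/S control, 5 of 27 further genes fell and 1 rose, against the same shares of all tested genes. CCND1, the cyclin that starts the release of E2F factors in G1, was at 178, 176 and 163 CPM in control and at 123, 115 and 108 CPM in MTR4 KD (log2 fold change -0.61, SE 0.0489, adjusted p = 2.14e-06), without overlap. E2F7, a repressive E2F factor that is itself an E2F target, was at 8.38, 10.1 and 7.74 CPM in control and at 7.29, 6.41 and 5.53 CPM in MTR4 KD (-0.55, adjusted p = 0.00101). CDKN1A, the kinase inhibitor p21, was at 17.6, 17.4 and 18.8 CPM in control and at 13.4, 12.2 and 13.4 CPM in MTR4 KD (-0.44, adjusted p = 0.000682), lower like the replication genes. CDKN2B, another inhibitor, was at 2.34, 2.36 and 2.79 CPM in control and at 3.44, 3.10 and 3.36 CPM in MTR4 KD (0.43, adjusted p = 0.0490). RB1, CDK4 and CDK6, the retinoblastoma protein and the kinases that act on it with D cyclins, had log2 fold changes of -0.03, 0.07 and 0.06 and did not pass the test (adjusted p = 0.796, 0.300 and 0.517). Of the 8 S phase checkpoint genes in the fit only CHEK1 passed the test (-0.29, adjusted p = 0.00187), against 20.2% of all tested genes.

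MKI67 and TOP2A were read as markers of proliferation outside replication itself. MKI67, present in all dividing cells, was at 210, 252 and 211 CPM in control and at 235, 237 and 160 CPM in MTR4 KD (log2 fold change -0.24, adjusted p = 0.00946). Most of that difference lay in MTR4 KD library 3, with -0.39 in batch A and -0.10 in batch B (adjusted p of the interaction 0.0687). TOP2A, which peaks in G2 and M phase, was at 240, 315 and 229 CPM in control and at 320, 318 and 225 CPM in MTR4 KD (-0.02, adjusted p = 0.787). Apart from these libraries, the study measured cell cycle phases of knockdown and control cells by flow cytometry and reports reduced proliferation after knockdown. The share of cells in each phase was not measured in these files, and its part in the lower replication genes was not tested.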

How the data were processed

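The authors deposited raw read counts per Ensembl gene for 6 libraries, made with HISAT2 2.1.0 on GRCh38 and HTSeq per the labels. The strand setting was not given in the sources used here. Counts were used as deposited, without the classes of reads not assigned to a gene. Of 60675 genes, 56959 had an entry in the name table, and positions came from RefSeq on GRCh38.p14. R 4.3.3 with edgeR 4.0.16 (filterByExpr with a minimum count of 10, TMM, quasi-likelihood F test on batch plus condition) and Benjamini-Hochberg adjustment over 18075 genes gave the main results, with an adjusted p under 0.05 as the threshold. The standard error is the absolute log2 fold change over the square root of F. DESeq2 1.42.0 and limma 3.58.1 served as alternatives. The procedure was run on simulated counts with the same batches and with a variation set near that of the main fit. Such counts cannot check the choice of the batch term or that variation. The batch was set by the share of non-unique alignments (over 30% or not). The genes and lists were chosen with earlier results of these data known. Per role, library values are given for up to 3 genes with the largest change past the threshold and for the gene nearest to 0. Of the further pathway genes, up to 3 per direction and list were named the same way, with CCND1, CDKN1A, RB1, CDK4 and CDK6. Alternatives covered scaling, filters, tests, thinning, protein-coding genes, thresholds and each library left out. Each batch alone and the genes free of overlaps were added after seeing the data.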

Additional observations from a re-analysis of the deposited data

Results flagged for a closer look

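A pair of further G1/S genes, both at very low levels, had a change that differed between the library batches by the test of the interaction of condition and batch. CCND2, a D-type cyclin, was at 0.357, 1.98 and 0.929 CPM in control libraries 1, 2 and 3 and at 0.196, 0 and 0.685 CPM in MTR4 KD libraries 1, 2 and 3. The log2 change in batch B minus that in batch A was -4.45 (adjusted p = 0.0433, quasi-likelihood F test of edgeR). CDKN1C, a kinase inhibitor, was at 0.470, 2.15 and 0.514 CPM in control and at 0.163, 0.180 and 0.636 CPM in MTR4 KD, with a difference of -4.00 (adjusted p = 0.00199). In both genes control library 2 was the highest, and it is the only control library of its batch. Both were named after their values were seen. The fitted size for CCND2 depends on the prior count, since 1 library was at 0.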

How the results depend on the processing

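Other scalings, no filter, a filter of 1 CPM, DESeq2, limma-voom, thinned counts and protein-coding genes only left 27 to 33 of the 44 genes lower and 0 higher. Of all tested genes, 1766 to 2028 of 18075 were lower with other scalings, DESeq2 and limma-voom. The counts were 2500 of 35496 with no filter and 1943 of 13659 with the filter of 1 CPM. They were 1915 of 17985 with thinned counts and 1799 of 13751 with protein-coding genes only. With condition as the only term 650 of all tested genes, 8 of the 44 and 4 of the further pathway genes passed the test, with the median of the 44 at -0.22. Whether the replicate numbers pair the libraries is not known. Deviations of same-numbered libraries correlated at 0.32 and 0.35 within a batch and at -0.24 across batches. Differently numbered libraries of the same batch correlated at 0.34 and 0.36. The correlations followed the batch and cannot decide on pairing. The replicate block gave 857 (515 lower), 8 and 6, with a median of -0.23. No gene of the 44 passed with over 1.5-fold. Of the 22 genes without an overlapping gene or named pseudogene 14 fell in the main fit, against 10.8% of all tested genes. Batch A alone gave a median of -0.27 for the 44, against -0.0030 over all tested genes, and batch B alone -0.20 against 0.0024. Each of these fits had 1 library in a group, MTR4 KD library 3 in batch A and control library 2 in batch B. Only the medians are therefore given. Leaving out 1 library at a time gave 2409 to 2947 of all tested genes past the threshold, 20 to 29 of the 44 (20 without MTR4 KD library 3), a median of -0.27 to -0.20, 16 to 25 further genes, and -0.89 to -0.73 for MTREX. Signs turned only for genes far from the threshold. LIG1 was at 0.0134 with condition only, 0.0145 with the block, 0.00039 with protein-coding genes and -0.0370 to 0.0186 with 1 library left out (0.0186 without control library 1). RB1 was at -0.0702 to 0.0047 with 1 library left out (0.0047 without control library 1 and 0.0013 without MTR4 KD library 2), and CDK4 at -0.0032 in batch B alone. The cause of these differences was not tested. Each of the 44 had at least 165 reads per library, so depth limits CCNE2 most.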
